A study of Gallus gallus with 15 samples.

Results

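The glycolytic enzymes from glucose-6-phosphate isomerase (GPI) to lactate dehydrogenase A (LDHA) were followed in the breast muscle of 15 Korat chickens (KRC). The 10 genes were chosen by name as GPI, PFKM, TPI1, GAPDH, PGK1, PGAM1, ENO1, ENO3, PKM and LDHA. A symbol in the deposited table was matched for 9 of them, and all 9 passed the filter on low values, among 17475 genes in the table and 11858 genes tested. ENO3 was not analysed here. Female KRC, a slow-growing meat chicken, were sampled at 10 weeks of age, 1 bird from each of 5 cages per group and 1 library per bird. The birds of group C were fed 0.5% L-histidine from week 4 to week 10, the birds of group B were fed 1% β-alanine over the same weeks, and the birds of group A had the basal diet alone. Carnosine synthase joins both amino acids into carnosine, a dipeptide that buffers acid in working muscle. All 15 birds shared the line, the sex, the age and the basal diet, and each library holds the RNA of whole breast muscle and not of muscle fibres alone.

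Glycolysis splits glucose into pyruvate in the cytosol and yields ATP without oxygen. Breast muscle of the chicken is built almost wholly of fast fibres, which rely on this pathway. Most of the enzymes followed here are among the most abundant transcripts of the tissue. GPI and PFKM act in the preparatory phase, where PFKM, the muscle form of phosphofructokinase, is the main control point. TPI1 and GAPDH link the phases, PGK1 and PKM form ATP, PGAM1 moves the phosphate within phosphoglycerate, ENO1 removes water to form phosphoenolpyruvate, and LDHA reduces pyruvate to lactate. Levels are given as normalized FPKM, which is the count of a gene divided by its exonic length and by the library size scaled by relative log expression (RLE), so that genes and birds can be compared.

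Positions are on the genome build GRCg6a. GAPDH (chromosome 1, 77619440 to 77623355) and TPI1 (chromosome 1, 77940690 to 77943689) lay 317335 bases apart. GPI was on chromosome 11 (10964813 to 10985639), PGK1 on chromosome 4 (12925824 to 12949330) and PGAM1 on chromosome 6 (23308079 to 23310457). ENO1 was on chromosome 21 (3220608 to 3233067), PKM on chromosome 10 (2035711 to 2052967) and LDHA on chromosome 5 (12754120 to 12760009). PFKM spanned 7260026 to 7267281 on a scaffold whose chromosome was not settled. Exonic lengths ran from 1288 bases for GAPDH to 2759 bases for PFKM, below the median of 3110 bases of all genes tested.

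Several birds stood apart, and values without them are given below for the enzymes and for some of the gene lists and single genes that turned on 1 bird. Libraries held 10620229 to 15381547 counts in genes, and the lowest total was that of bird A4, whose RLE scaling factor of 0.678 was also the lowest. The median log2 deviation of short genes (exonic length under 2000 bases, 3387 genes) minus that of long genes (at least 5000 bases, 3244 genes) was 0.854 in A4 and 0.775 in A3, and it lay between -0.383 and 0.194 in the other 13 birds. A4 and A3 also had the highest mean log2 deviations of the enzymes, at 1.04 and 0.463. In the read statistics of the study, they had the lowest mapping rates and the highest GC contents of the 15 libraries. No fit left out A3 and A4 together, and the part of library quality in the differences from controls was not tested. In bird C2, 10 of the 11 slow-fibre markers had their highest level of all birds, among them TPM3, a slow tropomyosin, at 689 against 15.0 to 21.0 normalized FPKM in the other C birds. The summed fast-fibre markers were 75560.3 to 132762 normalized FPKM in group C, 93808 to 125578 in group B and 112003 to 175612 in group A, which fits the labelled tissue. Of the 16 markers named, 12 were tested and detected, some at low levels, such as MYH1D at a mean of 0.586 in group A. The highest sum of these markers was in A4 and the 2 lowest sums were in C1 and C2. ACTA1, the skeletal actin, was the largest part of the sums, with means of 52477, 55616 and 68497 normalized FPKM in groups C, B and A. ACTA1 was lowest in C1, whereas MYL1, TNNI2, TNNT3, TNNC2 and MYH1E were lowest in C2. In bulk tissue, fewer fibres of a type and less RNA per fibre cannot be told apart.

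The enzymes took a large part of all counts. Together they held 10.8 to 18.0% of the counts of the C birds (median 16.3%), 16.2 to 19.5% of the B birds (median 17.1%) and 16.8 to 24.6% of the A birds (median 18.3%). The extremes of this share were C2 at 10.8% and A4 at 24.6%. GAPDH alone, which oxidises glyceraldehyde-3-phosphate, held 5.50 to 8.43% in group C, 7.79 to 10.1% in group B and 7.39 to 11.9% in group A. By mean level per exonic length over the 15 birds, GAPDH ranked 1 among the genes tested, PKM 4, LDHA 10, PGAM1 11, PFKM 13, TPI1 14, PGK1 17, GPI 25 and ENO1 188. The smallest count behind any of these values was 5629 fragments (ENO1), so counting error was at most 1.33% of a value. The remaining spread is that between birds and between their libraries, which 1 library per bird cannot tell apart.

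In control birds the levels were ordered as GAPDH, PKM, PGAM1, LDHA, PFKM, TPI1, PGK1, GPI and ENO1 from high to low. The ranges of the 5 control birds were apart for GAPDH and PKM, for PGK1 and GPI and for GPI and ENO1, and overlapped for every other pair of neighbours. Within birds, GAPDH was above PKM in 15 of 15, by 4.90 to 6.95 times, and TPI1 was above PGK1 in 15 of 15, by 1.22 to 1.95 times. PGAM1 and LDHA had no fixed order, with PGAM1 the higher in 3 of 5 control birds and in 3 of all 15. ENO1 was the low member, 2.55 to 9.13 times under GPI in the same bird.

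Several other genes for the same steps had low levels in this muscle. LDHA made up 96.2% of the summed LDHA and LDHB levels in C2 and 99.7 to 99.9% in every other bird. LDHB, the heart form of lactate dehydrogenase, was at 199.8 normalized FPKM in C2 and at 15.8 to 21.8 in the other C birds. PFKM made up at least 99.7% of the phosphofructokinase transcripts measured (with PFKL and PFKP), and ENO1 at least 99.8% of ENO1 and ENO2, a sum without ENO3, the muscle form. BPGM, a mutase of the PGAM1 step best known from red blood cells and named here after its values were seen, averaged 279 normalized FPKM over the 15 birds, close to ENO1 at 283. ALDOA and PGAM2 were not analysed here.

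**Figure D1:**
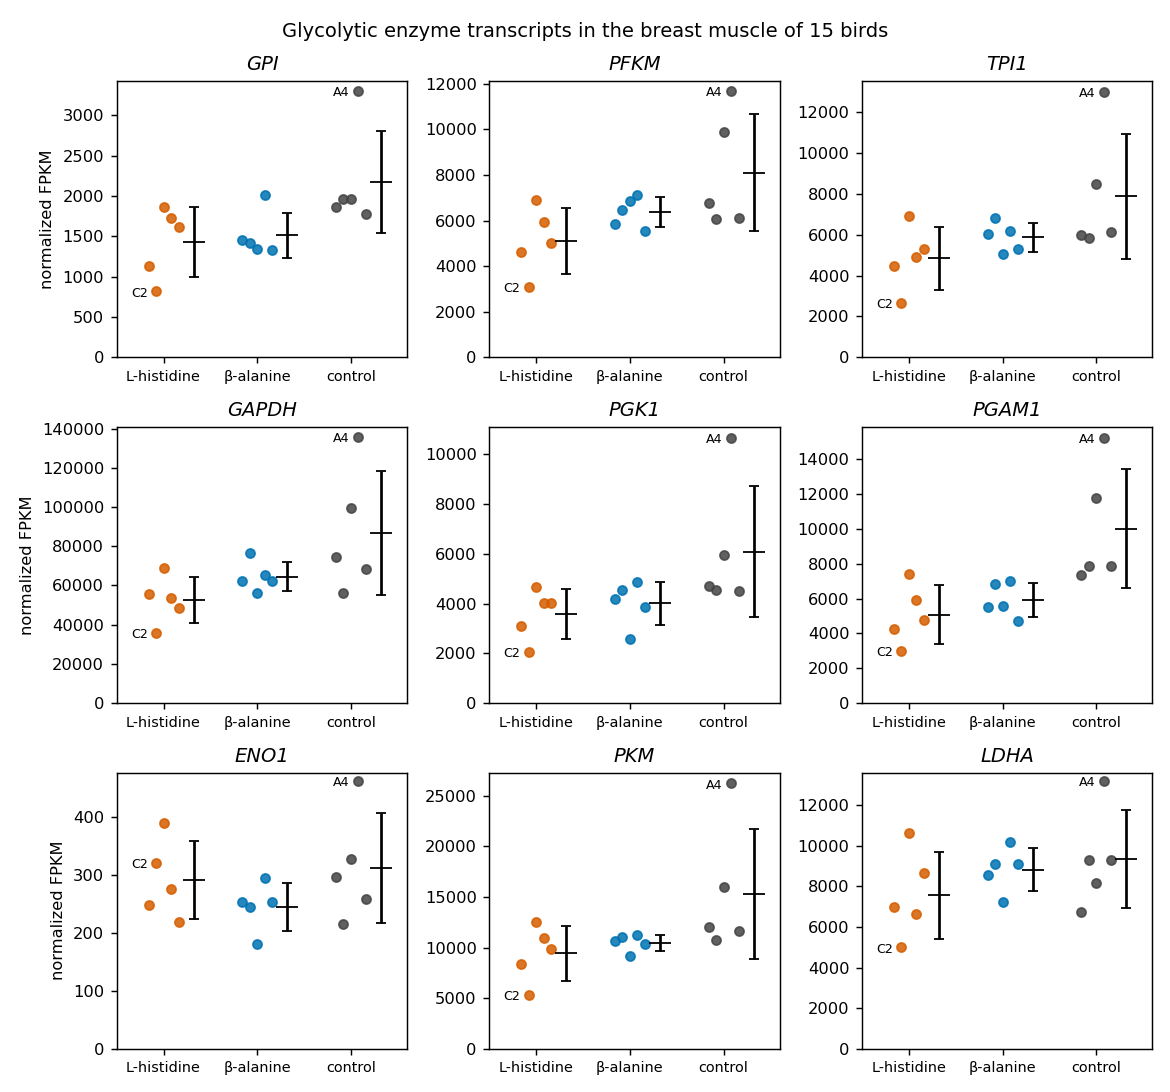
Normalized FPKM (y axes, linear from 0) of each enzyme in each bird (points), with the mean and SD of 5 birds beside each group (L-histidine, β-alanine, control from left to right). Bird A4 is the highest point in all 9 panels, and bird C2 is the lowest point in every panel but that of ENO1.

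GPI, which converts glucose-6-phosphate to fructose-6-phosphate, had 1131, 819, 1857, 1729 and 1613 normalized FPKM in birds C1 to C5, 1453, 1416, 1339.7, 2008 and 1333 in B1 to B5, and 1864, 1963, 1957, 3299.9 and 1772 in A1 to A5. A4 stood far above the other control birds, and B4 and C3 were the only supplemented birds to reach the control range. The log2 fold change was -0.60 ± 0.24 (SE) with L-histidine (adjusted p = 0.198, edgeR) and -0.52 ± 0.24 with β-alanine (adjusted p = 0.452, edgeR). PFKM had 4605, 3091, 6906, 5914 and 5009 normalized FPKM in C1 to C5, 5843, 6477, 6839, 7099.7 and 5544 in B1 to B5, and 6761, 6061, 9894, 11691 and 6111 in A1 to A5. The B birds lay close together, within the lower part of the control range or just below it, and 4 of the 5 C birds lay below the lowest control bird. Its log2 fold change was -0.67 ± 0.23 with L-histidine (adjusted p = 0.178, edgeR) and -0.35 ± 0.23 with β-alanine (adjusted p = 0.565, edgeR).

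TPI1, which interconverts the triose phosphates, had 4491, 2654, 6932, 4918 and 5278 normalized FPKM in C1 to C5, 6012, 6837, 5042, 6177 and 5322 in B1 to B5, and 5973, 5832, 8473, 13008 and 6132 in A1 to A5. The groups overlapped, with C3 and 3 of the B birds inside the control range. For TPI1 the log2 fold change was -0.70 ± 0.26 with L-histidine (adjusted p = 0.183, edgeR) and -0.42 ± 0.25 with β-alanine (adjusted p = 0.541, edgeR). GAPDH had 55438, 35928, 68659, 53817 and 48431 normalized FPKM in C1 to C5, 62223, 76509, 56048, 65318 and 62148 in B1 to B5, and 74452, 56384, 99373, 135911 and 68217 in A1 to A5. All C birds but C3 were below the lowest control bird, A2, whereas 4 of the 5 B birds were within the control range. GAPDH averaged 52455 ± 11860.4 in group C, 64449 ± 7534 in group B and 86867 ± 31595 in group A (SD, n = 5 birds each). The log2 fold change was -0.73 ± 0.22 with L-histidine (adjusted p = 0.170 with edgeR, 0.0561 with DESeq2) and -0.43 ± 0.22 with β-alanine (adjusted p = 0.498 with edgeR).

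PGK1, the first ATP-forming step, had 3102, 2072, 4658, 4023 and 4032 normalized FPKM in C1 to C5, 4173, 4559, 2589, 4853 and 3854 in B1 to B5, and 4716, 4563, 5967, 10680.3 and 4489.6 in A1 to A5. A4 was far above the other control birds, and C3, B2 and B4 were the only supplemented birds inside the control range. The log2 fold change of PGK1 was -0.77 ± 0.27 with L-histidine (adjusted p = 0.183, edgeR) and -0.60 ± 0.27 with β-alanine (adjusted p = 0.452, edgeR). PKM, pyruvate kinase, had 8361, 5347, 12537, 10994 and 9883 normalized FPKM in C1 to C5, 10627, 11006, 9179, 11200.0 and 10354 in B1 to B5, and 11999.8, 10761, 16009.8, 26248 and 11668 in A1 to A5. The control birds other than A3 and A4 were close to the upper B and C birds. Its log2 fold change was -0.70 ± 0.25 with L-histidine (adjusted p = 0.183, edgeR) and -0.55 ± 0.25 with β-alanine (adjusted p = 0.452, edgeR).

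PGAM1, phosphoglycerate mutase, had the lowest fold changes of the family. It had 4275, 2993, 7429, 5912 and 4773 normalized FPKM in C1 to C5, 5522, 6828, 5554, 6994 and 4733 in B1 to B5, and 7376, 7844, 11775, 15255 and 7873 in A1 to A5. All 5 B birds were below all 5 control birds, and C3 alone of the C birds reached the lowest control bird, A1. Means were 5077 ± 1682 in group C, 5926 ± 959 in group B and 10025 ± 3421 in group A (SD, n = 5 birds each). The log2 fold change was -0.98 ± 0.25 with L-histidine (95% interval -1.51 to -0.45, unadjusted p = 0.00117, adjusted p = 0.170, edgeR), and this p ranked 76 among 11858 genes. With DESeq2 the same comparison passed, at an adjusted p of 0.0210, but with 1 bird left out it ranged from 0.00172 to 0.131 and missed the threshold in 5 of 15 cases (without A3, A4, C1, C2 or C5). With β-alanine the log2 fold change was -0.76 ± 0.25 (95% interval -1.29 to -0.23, unadjusted p = 0.00772, adjusted p = 0.424 with edgeR and 0.166 with DESeq2). Without A4 and C2 together, a choice made after seeing the data, PGAM1 had a log2 fold change of -0.64 with L-histidine (unadjusted p = 0.00850, edgeR) and of -0.56 with β-alanine (unadjusted p = 0.0133, edgeR).

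ENO1 and LDHA differed least. ENO1, which forms phosphoenolpyruvate, had 249, 322, 390.3, 277 and 219 normalized FPKM in C1 to C5, 254, 245, 180.4, 295 and 254 in B1 to B5, and 297, 215, 328, 463 and 259 in A1 to A5. C2, the lowest bird for the other 8 enzymes, had the fourth highest ENO1 level of all birds, and the groups overlapped throughout. The log2 fold change of ENO1 was -0.10 ± 0.22 with L-histidine (adjusted p = 0.814, edgeR) and -0.35 ± 0.22 with β-alanine (adjusted p = 0.552, edgeR). LDHA had 6964, 5003, 10622, 6629 and 8645 normalized FPKM in C1 to C5, 8545, 9096, 7244, 10193 and 9094 in B1 to B5, and 6754, 9309.7, 8162, 13199 and 9326 in A1 to A5. A1 was below all B birds and A4 above all of them, so that the B birds lay inside the control range. For LDHA the log2 fold change was -0.30 ± 0.21 with L-histidine (adjusted p = 0.424, edgeR) and -0.08 ± 0.21 with β-alanine (adjusted p = 0.898, edgeR).

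A call needed an adjusted p below 0.05 together with at least a 1.5-fold difference. By edgeR, 0 of the 9 enzymes were called in any comparison, and 0 of all 11858 genes were called (percent called 0 in each comparison). At an unadjusted p under 0.05, 7 of the 9 enzymes had a lower level with L-histidine than in controls, against 11.2% of all genes tested, and 0 had a higher level, against 7.99%. With β-alanine, 4 of 9 were lower, against 6.17% of all genes, and 0 were higher, against 4.47%. Between L-histidine and β-alanine, 0 of 9 passed in either direction, against 1.51% lower and 2.51% higher over all genes. The enzymes varied together from bird to bird, as described below. Counts of enzymes, here and for the signs of their fold changes, are therefore not counts of independent genes. DESeq2 called 1 member with L-histidine (PGAM1), against 2.07% of genes with an adjusted p, and 0 members with β-alanine, against 0.519%, and between the supplemented groups it called 0 members and 0 genes in all.

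With all birds and RLE scaling, the 9 enzymes lay on the same side of 0. All 9 log2 fold changes were below 0 with L-histidine, where 49.0% of all genes were, and all 9 were below 0 with β-alanine, where 51.7% were, although ENO1 with L-histidine and LDHA with β-alanine were above 0 with library totals in place of RLE scaling, without A4 alone (0.0850 and 0.0764), and with the length trend of each library removed (0.0517 and 0.0325). The median log2 fold change of the 9 was -0.70 with L-histidine and -0.43 with β-alanine, beside medians of 0.01 and -0.02 over all genes tested. Both comparisons use the same 5 control birds. Between the supplemented groups (L-histidine over β-alanine), 8 of 9 were below 0, against 48.6% of all genes, with a median of -0.22 and a range of -0.32 for PFKM to 0.25 for ENO1. None of these 9 differences passed (adjusted p at least 0.983, edgeR), and their 95% intervals reached from -0.81 for TPI1 to 0.70 for ENO1. PGAM1 with β-alanine was the only case in which all 5 supplemented birds lay below all 5 control birds, which held for 0.869% of all genes with β-alanine and for 1.05% with L-histidine, and for no member were all birds of 1 group below those of the other between L-histidine and β-alanine (0.278% of all genes). The opposite case, all supplemented birds above all control birds, occurred for 0 members, against 0.978% of all genes with L-histidine and 0.852% with β-alanine, and for 0 members with L-histidine over β-alanine, against 0.439%.

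**Figure D2:**
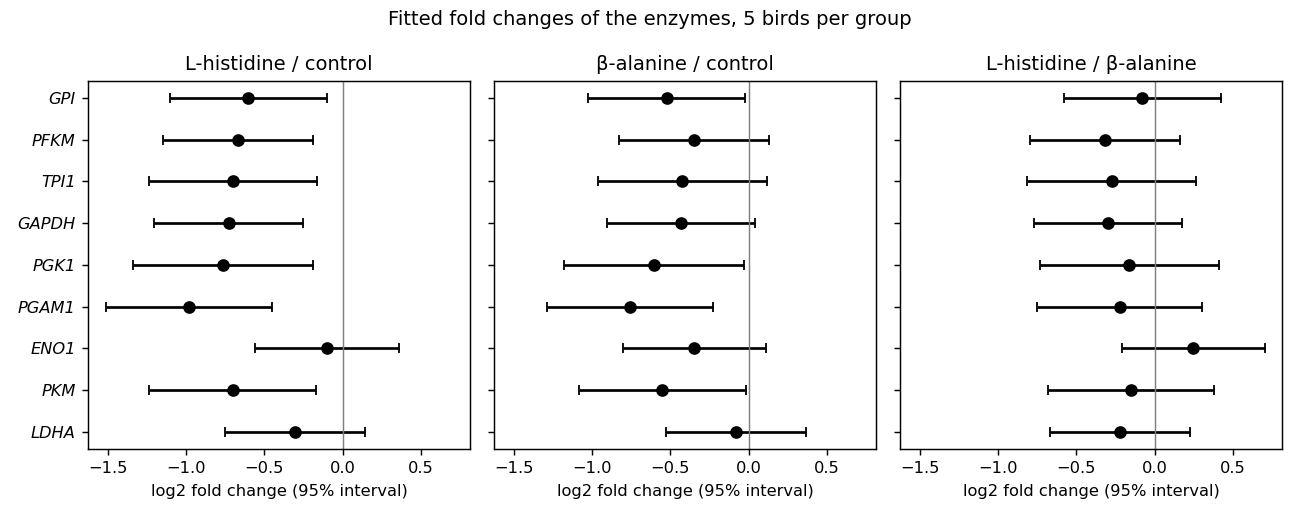
Log2 fold change (x axes) of each enzyme in 3 comparisons, with the edgeR estimate (point) and its 95% interval (bar). All points of the L-histidine over control and β-alanine over control panels lie left of 0, PGAM1 farthest at -0.98 and -0.76, whereas all intervals of the L-histidine over β-alanine panel include 0, and ENO1 (L-histidine) and LDHA (β-alanine) lay above 0 with library totals in place of RLE scaling, without A4 and with the length trend removed.

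The size of these differences rested in part on A4 and C2. Without A4, the median log2 fold change of the 9 enzymes was -0.44 with L-histidine (3 at an unadjusted p under 0.05) and -0.21 with β-alanine (1 of 9). Of all 11858 genes tested, 1277 and 754 passed in that fit, lower and higher together, which is the base for later counts without A4. Without C2 the median of the enzymes was -0.54 with L-histidine (6 of 9, against 1614 of 11858 genes). Without both birds it was -0.29 with L-histidine, where PGAM1 and GAPDH (-0.40, unadjusted p = 0.0444, edgeR) were the 2 that passed, and -0.21 with β-alanine, where PGAM1 was the 1 that passed. Of all 11858 genes, 911 and 838 passed without both birds. With the length trend of each library removed, the medians were -0.47 with L-histidine and -0.31 with β-alanine, and PGAM1 had log2 fold changes of -0.79 and -0.62. The part of the 2 birds' fibre makeup and of gene length in the group differences was not tested. With library totals in place of RLE scaling, all genes tested shifted to medians of 0.29 with L-histidine and 0.18 with β-alanine on the log2 scale, and the medians of the 9 enzymes were -0.37 and -0.17.

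Markers of fibre type were set beside the enzymes, and 0 of them passed edgeR after adjustment. Of the 12 fast-fibre markers tested, 5 had a lower and 2 a higher level at an unadjusted p below 0.05 with L-histidine (11.2% and 7.99% of all genes), and 1 was lower and 0 higher with β-alanine (6.17% and 4.47% of all genes), with medians of -0.52 and -0.32. Without A4, 3 were lower with L-histidine and 0 with β-alanine, with medians of -0.31 and -0.0915. The 2 higher ones followed C2, where the fast myosin MYH1D was at 18.7 normalized FPKM against 0.655 to 1.64 in the other C birds, and MYH1F at 89.8 against 6.27 to 12.5, and without C2 neither passed. MYH1E, a fast myosin heavy chain, had log2 fold changes of -0.62 ± 0.21 with L-histidine (adjusted p = 0.177, edgeR) and -0.52 ± 0.21 with β-alanine (adjusted p = 0.441, edgeR). Of the 11 slow-fibre markers, 10 passed an unadjusted p of 0.05 with L-histidine (9 of them higher), and 0 with β-alanine. The higher slow markers with L-histidine followed bird C2, where ATP2A2, the slow calcium pump, was at 48.5 normalized FPKM against 1.09 to 1.33 in the other C birds. The slow sums were 6139 to 13949 normalized FPKM in group C, 6398 to 10494 in group B and 7335 to 19162 in group A. TNNC1, a slow troponin by its name in mammals, made up 98.7 to 99.8% of the sum in 14 birds and was highest in A4. In C2, the bird with the highest sum of group C, it made up 36.5%. MYH7 was at 0 in 4 birds.

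**Figure D3:**
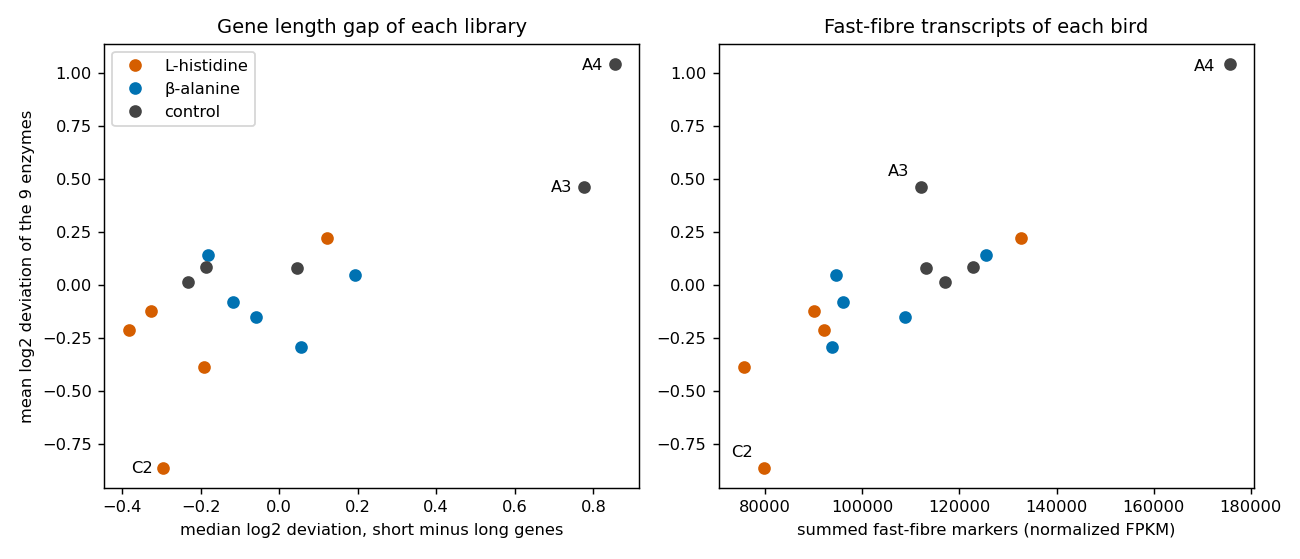
Mean log2 deviation of the 9 enzymes from their 15-bird means (y axis) in each bird, against the short minus long gene deviation of its library (left) and against its summed fast-fibre markers in normalized FPKM (right). A4 and A3 lie apart on the right of the left panel, at 0.854 and 0.775, and A4 lies at the top right of the right panel. ACTA1 is the largest part of the summed markers.

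The enzymes varied together from bird to bird. Over the 15 birds, the Pearson r of log2 normalized CPM was above 0 in 36 of 36 pairs, with a median of 0.885 and a range of 0.325 for ENO1 and LDHA to 0.976 for TPI1 and PKM, and the median over all pairs of genes tested was 0.00. The spread around that median was wide. The 5th to 95th percentiles of r with all other genes were -0.780 to 0.820 for GAPDH, -0.609 to 0.632 for LDHA and -0.604 to 0.580 for ENO1. The r of ENO1 with the other enzymes, at most 0.580, lay within its range. For every enzyme but ENO1, the median r with the other enzymes lay above its own 95th percentile. Of the 36 pairs, 30 had an adjusted p under 0.05 for r and 28 for Spearman's rho (two-sided permutation tests with 100000 resamples, adjusted over the 36 pairs). The share of all gene pairs that would pass was not computed. GAPDH and ENO1 passed at r = 0.548 (permutation test, adjusted p = 0.0428), which lies within the range of GAPDH with all other genes. GAPDH also passed with LDHA (r = 0.698) and with GPI (r = 0.802), and both values lie within that range of GAPDH. They lie above the 95th percentiles of LDHA (0.632) and GPI (0.717). The tests include A4 and C2. TPI1 and PKM had r = 0.976 (permutation p = 1e-05, the smallest the resamples can give, adjusted p = 2.77e-05) and rho = 0.886 (permutation p = 2e-05, adjusted p = 0.000144). With levels centred on the mean of each group, the median r was 0.852, a pooled value that still holds A4 and C2. No r was computed within 1 group alone. The values share the scaling of each library, and with library totals in place of RLE the median was 0.716.

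ENO1 and LDHA were the loosest members. ENO1 had a median r of 0.472 with the other enzymes and LDHA 0.739, and the medians of the other 7 lay between 0.885 for GPI and 0.942 for PKM. Over the 28 pairs without ENO1 the median r was 0.918, and over the 21 pairs without ENO1 and LDHA r lay between 0.802 and 0.976. The 2 birds farthest from the median were A4 and C2 for GPI, PFKM, TPI1, GAPDH, PGK1, PGAM1 and PKM, and A4 and C3 for ENO1. Without A4 and C2 the median over the 36 pairs was 0.679, and the 21 pairs without ENO1 and LDHA had r of 0.367 to 0.898 with a median of 0.812. TPI1 and PKM kept r = 0.895 and PGAM1 and PKM r = 0.898, whereas PFKM and LDHA had r = 0.158 and GAPDH and LDHA r = 0.170, so those relations of LDHA rest on A4 and C2. ENO1 and PKM had r = 0.536 (permutation p = 0.0434, adjusted p = 0.0505), r = 0.0839 without A4 and C3, the 2 birds farthest from the median of ENO1, and r = 0.696 without A4 and C2.

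**Figure D4:**
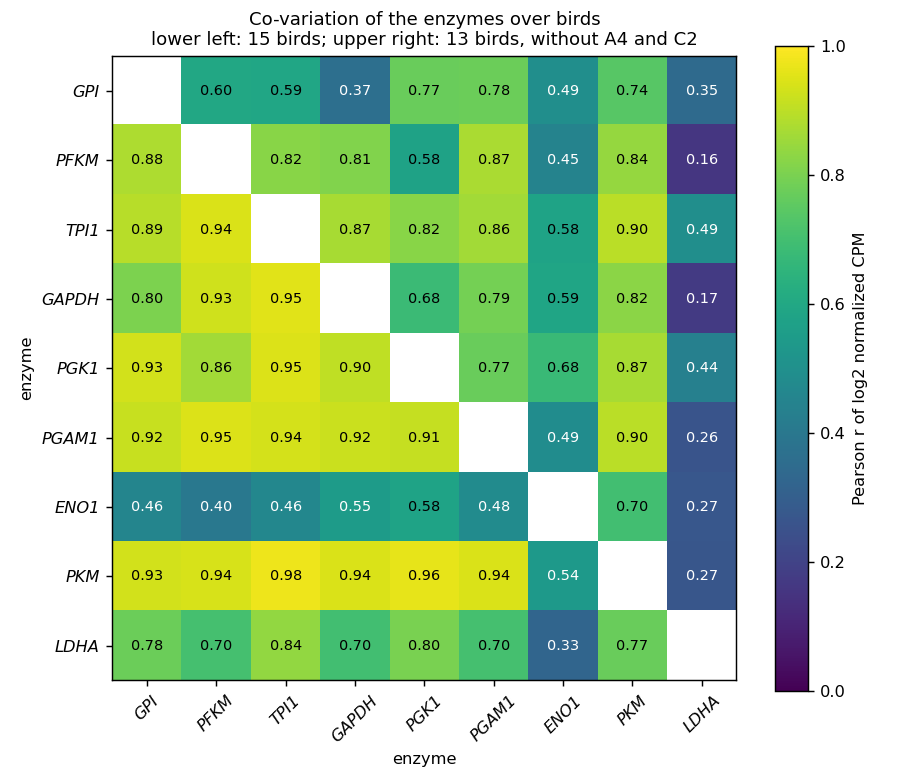
Pearson r (colour and printed value) of log2 normalized CPM between each pair of enzymes over 15 birds (lower left) and over 13 birds without A4 and C2 (upper right). The lower left is 0.698 or more outside the ENO1 pairs, and the LDHA column of the upper right runs between 0.158 and 0.495.

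The spread over birds differed between members. The highest bird was 5.16 times the lowest for PGK1, 5.10 times for PGAM1, 4.91 times for PKM, 4.90 times for TPI1, 4.03 times for GPI and 3.78 times for both GAPDH and PFKM. LDHA, at 2.64 times, and ENO1, at 2.57 times, varied least. Without A4 and C2, LDHA had a ratio of 1.60, below the 1.78 of GPI, and PGAM1 had the widest ratio at 2.75. The coefficient of variation over all 15 birds was 43.8% for PGAM1 and 22.9% for LDHA.

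The balance among the enzymes within a bird does not depend on the library scaling, since every member of a bird is divided by the same library size. Relative to the mean log2 level of the 9 enzymes in the same bird, PGAM1 stood at 0.17 ± 0.12 in group C, 0.24 ± 0.15 in group B and 0.55 ± 0.11 in group A (SD, n = 5 birds each). Its range was 0.0647 to 0.307 in group C, 0.0178 to 0.388 in group B and 0.420 to 0.719 in group A. The share of all genes that would be apart on this scale was not computed. Each enzyme is part of the mean, so lower values of some members raise the others on this scale. In the fits against controls, LDHA was at -0.30 with L-histidine and -0.08 with β-alanine, and ENO1 at -0.10 and -0.35. Relative to the mean of the 9, LDHA stood at 0.77 ± 0.18 in group C, 0.82 ± 0.08 in group B and 0.48 ± 0.30 in group A, and here A2, at 0.827, and A5, at 0.765, lay among the supplemented birds. ENO1 was 0.53 higher in group C than in group A on this scale and 0.09 higher in group B, with the highest C value, -3.15, in C2. The other 6 enzymes differed from controls by -0.14 to 0.10 in either group.

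The ratio of PGAM1 to LDHA, picked after these values were seen and therefore not tested, was 0.614, 0.598, 0.699, 0.892 and 0.552 in C1 to C5, 0.646, 0.751, 0.767, 0.686 and 0.520 in B1 to B5, and 1.09, 0.843, 1.44, 1.16 and 0.844 in A1 to A5. Only C4 among the supplemented birds reached the control range. With PKM in place of LDHA, the supplemented and control ranges overlapped. They were 0.483 to 0.593 in group C, 0.457 to 0.624 in group B and 0.581 to 0.735 in group A. GAPDH and PKM kept a steadier ratio, with medians of 5.48 in group C, 6.002 in group B and 5.85 in group A.

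**Figure D5:**
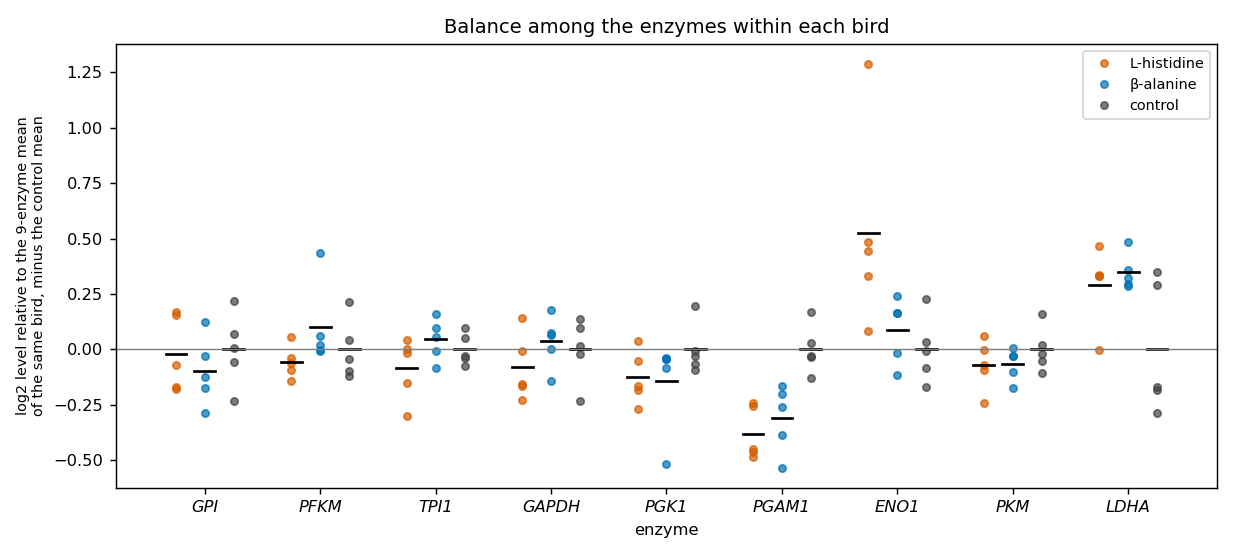
Log2 level of each enzyme relative to the mean of the 9 enzymes of the same bird, minus the control mean (y axis), with birds as points and group means as bars (L-histidine, β-alanine, control from left to right). The bars of PGAM1 lie at -0.38 and -0.31 for the supplemented groups, those of LDHA at 0.29 and 0.35, and the high ENO1 point of the L-histidine group is C2.

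The other genes of the pathway were described from lists of entry steps, isoenzymes, bypass enzymes, exits and regulators. In none of these lists did a gene pass edgeR in either supplemented group. Of the 10 entry genes tested (glucose transporters, hexokinases and phosphoglucomutases), 2 were lower and 1 higher at an unadjusted p under 0.05 with L-histidine, and likewise with β-alanine. Of all genes, 11.2% were lower and 7.99% higher with L-histidine, and 6.17% and 4.47% with β-alanine. When A4 was left out, 1 entry gene was lower and 0 higher with L-histidine, and 0 lower and 1 higher with β-alanine. In that fit 1277 and 754 of all 11858 genes passed, lower and higher together. PGM1, which joins glycogen breakdown to glycolysis, had 2154, 1406, 3351, 2741 and 2716 normalized FPKM in C1 to C5, 2736, 3013, 2491, 3369 and 2712 in B1 to B5, and 3229, 3312, 3554, 6363 and 3402 in A1 to A5. A4 and C2 were again the extremes, and the log2 fold change was -0.68 ± 0.23 with L-histidine (adjusted p = 0.179, edgeR) and -0.47 ± 0.23 with β-alanine (adjusted p = 0.484, edgeR). Without A4 the log2 fold changes of PGM1 were -0.45 and -0.23. PGM2L1, a relative of PGM1, had log2 fold changes of -0.86 ± 0.32 with L-histidine and -0.71 ± 0.32 with β-alanine, and of -0.39 and -0.24 without A4. HK3, a hexokinase of leukocytes in mammals, had 0.89 ± 0.42 with L-histidine and 1.17 ± 0.42 with β-alanine, at a mean of 0.655 normalized FPKM in controls. Without A4, HK3 was at 0.71 with L-histidine (unadjusted p = 0.108, edgeR).

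Among the 11 bypass enzymes and PFKFB genes, which run against or steer glycolysis, 3 were lower with L-histidine (11.2% of all genes) at an unadjusted p under 0.05. With β-alanine, 1 was lower and 1 higher (6.17% and 4.47% of all genes). G6PC3, the widely expressed glucose-6-phosphatase, had 10.97, 12, 23.0, 15.4 and 16.7 normalized FPKM in C1 to C5, 12.01, 14.5, 15.3, 15.6 and 15.4 in B1 to B5, and 23.4, 15.1, 36.7, 49.3 and 28.3 in A1 to A5. Apart from A2, the control birds were above all supplemented birds. The log2 fold change of G6PC3 was -0.97 ± 0.26 with L-histidine (adjusted p = 0.170 with edgeR, 0.0341 with DESeq2) and -1.07 ± 0.27 with β-alanine (adjusted p = 0.259 with edgeR, 0.0311 with DESeq2). With 1 bird left out, G6PC3 passed DESeq2 in 6 of 15 cases with L-histidine and in 8 of 15 with β-alanine. PFKFB4, which makes the activator of phosphofructokinase, had a log2 fold change of -0.74 ± 0.23 with L-histidine and -0.21 ± 0.23 with β-alanine, and TIGAR, which removes that activator, had -0.64 ± 0.28 and -0.26 ± 0.28. PFKFB4 was at 399.7 normalized FPKM in B2 against 171 to 232 in the other B birds. Its log2 fold change with β-alanine was -0.47 without B2. Without A4, the log2 fold changes with L-histidine were -0.73 for G6PC3, -0.62 for PFKFB4 and -0.55 for TIGAR. Of these, TIGAR no longer passed (unadjusted p = 0.0824, edgeR), nor did it without C2 (-0.52, unadjusted p = 0.0913, edgeR).

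Of the 12 exit genes (lactate and pyruvate carriers and shuttle enzymes), 4 were lower with L-histidine (11.2% of all genes) and 2 with β-alanine (6.17% of all genes) at an unadjusted p under 0.05, and 0 were higher in either. Without A4, 1 was lower with L-histidine and 0 with β-alanine. The malate-aspartate shuttle enzymes GOT1 and MDH2 had log2 fold changes of -0.66 ± 0.23 and -0.72 ± 0.26 with L-histidine and of -0.59 ± 0.23 and -0.71 ± 0.26 with β-alanine, and MPC2, a subunit of the mitochondrial pyruvate carrier, had -0.47 ± 0.21 and -0.30 ± 0.21. Without A4, MDH2 was at -0.36 and -0.34 and MPC2 at -0.29 and -0.11. Of the 15 regulators of glycolytic genes, 2 were higher with L-histidine (7.99% of all genes) and 3 with β-alanine (4.47% of all genes) at an unadjusted p under 0.05, and 0 were lower. SIX4, a homeobox factor of fast muscle in mice, had 0.63 ± 0.19 with L-histidine and 0.52 ± 0.19 with β-alanine, and MLXIP, a glucose-sensing factor, had 0.45 ± 0.17 and 0.51 ± 0.17. With 1 bird left out, both were smallest without A3, SIX4 at 0.49 and 0.38 and MLXIP at 0.34 and 0.41. In controls, SIX4 was lowest in A3 (3.64 normalized FPKM), and MLXIP in A3 (6.39) and A4 (7.41). The part of library quality in these values was not tested. PPARGC1A, a coactivator of oxidative metabolism, had 0.91 ± 0.54 and 1.65 ± 0.55, the second resting on bird B1 at 4.75 normalized FPKM, where the other B birds had 0.831 to 1.66, and lying at 1.03 without B1. Of the 6 genes tested from the isoenzyme list, 1 was lower and 1 higher at an unadjusted p under 0.05 with L-histidine. With β-alanine, 0 passed. The lower one was LDHD, a D-lactate dehydrogenase, which does not share the step of LDHA. The higher one was LDHB, at 1.57 with all birds and 0.0181 without C2. PFKL, the liver form of phosphofructokinase, had log2 fold changes of -0.70 ± 0.35 with L-histidine (adjusted p = 0.287, edgeR) and -0.68 ± 0.35 with β-alanine (adjusted p = 0.498, edgeR), and of -0.45 and -0.43 without A4.

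The genes most like the family were found by the Pearson r of their log2 normalized CPM with the mean of the 9 enzymes over 15 birds, a description over birds that share the scaling. The highest were PGM1 at 0.976, TNNT3, the fast troponin T, at 0.967, LOC107050456 at 0.966, CHCHD2 at 0.961, CTPS1 at 0.958, SRPRA at 0.954, RNF123 at 0.953, CHMP7 at 0.953, PPP1CA at 0.951 and BANF1 at 0.943. PGM1 and TNNT3 had 0.918 and 0.887 without A4 and C2, and 0.962 and 0.946 with levels centred within groups. PFKFB4L was the most opposed, at -0.964, and kept -0.928 without A4 and C2. The next were CDYL2 at -0.928, IKZF1 at -0.921, SESN3 at -0.920 and ZC3H12D at -0.918, all with mean levels of 0.232 to 1.15 normalized FPKM.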

How the data were processed

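Breast muscle RNA of 15 birds, 5 per group, was analysed with 1 library per bird. Per the labels, the authors used cutadapt 1.9.1 for trimming, HISAT2 2.0.1 for alignment to GRCg6a and HTSeq 0.6.1 for the deposited count of each gene. The deposited FPKM are these counts divided by exonic length and library total, and were used for the filter (mean of at least 0.2, leaving 11858 genes). The strand setting and the treatment of reads with several matches are not given in the sources used here. Overlapping genes and gene copies may share reads. Counts were scaled by RLE and fitted with edgeR 4.0.16 (quasi-likelihood test, all 15 birds, no covariates), with Benjamini-Hochberg adjustment across all genes. DESeq2 1.42.0 and limma 3.58.1 were alternatives, as were other scalings, filters and bird sets. The fits were tested on simulated counts of independent genes, without outlying birds or a gene length trend. That run therefore cannot speak to the part of birds such as A4, A3 and C2. The members and lists were chosen with earlier results of these data known. Named genes are all members, the 3 of each list with the smallest p in either supplemented group, and the 10 most like and 5 least like the family. In 1 list, 1 item is not reported here. Chromosome names come from gene symbols shared with GRCg7b. The birds came from different cages. Intervals are at 95%.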

Additional observations from a re-analysis of the deposited data

Results flagged for a closer look

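Dixon's test at the 95% level was applied to each group of 5 birds, in normalized FPKM, and 21 of 144 groups of members and named genes held a bird far from the others (3 of 27 for the enzymes). Chance picks about 1 in 20 of independent groups with normal values. The named genes were chosen by small p in these same data and the same birds recur, so that rate is no measure for these counts. Among the enzymes, these were GPI in A4 (3299.9, other control birds 1772 to 1963), PGK1 in A4 (10680.3, others 4489.6 to 5967) and GPI in B4 (2008, other β-alanine birds 1333 to 1453). The same bird A4 stood out for PGM1 (6363), PGM2L1 (118.9) and TAGLN (44.0).

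Bird C2 stood out from the other L-histidine birds for LDHB (199.8), PGM2L1 (14.1, the lowest), MYH1D (18.7), MYH1F (89.8), MYH7 (3.04), ATP2A2 (48.5), TPM3 (689) and CNN1 (190.8). In fat cell markers, C4 stood out for PLIN1 (30.9) and CIDEC (10.3), and A5 for PLIN1 (45.8), FABP4 (238.7) and CIDEC (14.4). In the β-alanine group, B2 stood out for PFKFB4 (399.7), and B1 for PPARGC1A (4.75). The cause of these values was not tested.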

How the results depend on the processing

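With edgeR and limma, 0 members were called in any comparison under every alternative run, including each bird left out in turn, and DESeq2 called 1 with L-histidine (PGAM1, log2 fold change -0.99), a call that passed in 10 of 15 cases with 1 bird left out. The DESeq2 fits and list values with birds left out were added after seeing the data. The fold changes of the 7 members other than ENO1 and LDHA stayed below 0 in both comparisons with controls under every alternative. LDHA with β-alanine turned to 0.15 with library totals only, 0.0756 without A4 and C2 together and 0.0325 with the length trend removed, and ranged from -0.18 to 0.0764 with 1 bird left out, above 0 without A4. ENO1 with L-histidine turned to 0.23, 0.0492 and 0.0517 under the same 3 settings and ranged from -0.23 to 0.0850 with 1 bird left out, above 0 without A4. GPI between L-histidine and β-alanine was 0.0682 without A4 and C2 and ranged from -0.19 to 0.0665 with 1 bird left out, above 0 without C2 and without B4. The median r of the 36 pairs was 0.716 with library totals and 0.679 without A4 and C2, and 0.816 to 0.911 with 1 bird left out. Same-numbered birds of different groups had a median correlation of 0.0479 (range -0.239 to 0.247), against -0.0323 for differently numbered birds. Of the 15 birds, 6 were closest to a bird of their own number. Whether replicate numbers pair the birds was not settled by these values. With a replicate block, 7 members with L-histidine and 2 with β-alanine, against 4 without it, had an unadjusted p under 0.05, and 0 were called. Of all 11858 genes, 2221 with L-histidine and 1224 with β-alanine passed in the block fit. The cause of these shifts was not tested. Counting error was at most 1.33% of any enzyme's value, under the spread between birds and their libraries.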

Other observations

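Markers of other cell types in the muscle were summed for each bird. For the counts below, 11.2% of all genes tested were lower and 7.99% higher with L-histidine at an unadjusted p under 0.05 (edgeR). With β-alanine these shares were 6.17% and 4.47%. With L-histidine, 3 of 6 endothelial markers were higher at an unadjusted p under 0.05, among them PECAM1, an adhesion molecule of vessel walls, with a log2 fold change of 1.03 ± 0.30 (adjusted p = 0.170 with edgeR, 0.0458 with DESeq2), TEK with 0.46 ± 0.16 and KDR with 0.42 ± 0.19. With 1 bird left out, PECAM1 with L-histidine passed DESeq2 in 5 of 15 cases. KDR with L-histidine was at 0.41 without A5 (unadjusted p = 0.0685, edgeR) and at 0.42 without C2 (unadjusted p = 0.0593, edgeR). Of the same 6 markers, 1 was lower and 0 higher with β-alanine at an unadjusted p under 0.05 (edgeR). PECAM1, TEK and KDR had log2 fold changes of 0.59, -0.05 and 0.18 with β-alanine. The endothelial sums were 67.2 to 92.3 normalized FPKM in group C, 47.0 to 81.1 in group B and 53.7 to 68.2 in group A. With β-alanine, 3 of 7 fat cell markers were lower, among them PLIN1, the coat protein of fat droplets, with a log2 fold change of -4.83 ± 1.42 (adjusted p = 0.387 with edgeR, 0.0332 with DESeq2), FABP4 with -3.09 ± 1.03 and CIDEC with -3.23 ± 1.42. Bird A5 had 45.8 normalized FPKM of PLIN1, against 0.226 to 6.82 in the other control birds, and 238.7 of FABP4, against 3.36 to 35.5. Without A5 the log2 fold changes were -2.61 for PLIN1, -1.17 for FABP4 and -1.26 for CIDEC, and PLIN1 passed DESeq2 in 8 of 15 cases with 1 bird left out. The fat cell sums were 83.6 to 277.6 in group C, 80.5 to 138.5 in group B and 109.5 to 431 in group A.

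Of the 8 macrophage and leukocyte markers, 0 passed in either supplemented group, and PTPRC, MRC1 and C1QA had log2 fold changes of 0.92 ± 0.43, 0.55 ± 0.31 and 0.66 ± 0.42 with L-histidine. Without C2, PTPRC, MRC1 and C1QA were at 0.51, 0.51 and 0.30. Of the 6 fibroblast markers, 1 was higher with L-histidine (PDGFRA, 0.75 ± 0.32) and 0 passed with β-alanine. PDGFRA was at 0.55 without A4 (unadjusted p = 0.0685, edgeR) and at 0.58 without C2 (unadjusted p = 0.0956, edgeR). Of the 6 smooth muscle markers, 1 was higher (CNN1) and 1 lower (TAGLN, -0.86 ± 0.33) with L-histidine, and 2 were lower with β-alanine (TAGLN, -1.06 ± 0.33, and ACTA2, -0.90 ± 0.32). Without A4, TAGLN was at -0.40 with L-histidine and -0.60 with β-alanine, and CNN1, at 2.68 with all birds, was at 0.38 without C2. ACTA2 with β-alanine was at -0.65 without A4 (unadjusted p = 0.0530, edgeR). Of the 3 red blood cell markers tested, 0 passed in either supplemented group.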
